A study of Mus musculus with 2 samples.

Results

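The genes described here encode the proteasome, the complex that degrades ubiquitin-tagged proteins. They were chosen by symbol: every annotated symbol that starts with Psma, Psmb, Psmc, Psmd, Psme, Psmf or Psmg followed by a digit, is not marked as a pseudogene with -ps, and had at least 50 UMIs over both libraries. A UMI, or unique molecular identifier, stands for 1 captured RNA molecule. Of 50 matching symbols, 48 passed, out of 31053 annotated features, of which 11938 had as many UMIs. Left out were Psmb11, with 1 UMI, and Psmc3ip, with 37 UMIs, whose product is not a proteasome subunit. Just inside the minimum were Psma8 with 52 UMIs and Psme2b with 78 UMIs.

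The study profiled liver cells of C57BL/6 mice by single-cell RNA sequencing, with 1 library from mice fed chow and 1 library from mice fed a NASH (non-alcoholic steatohepatitis) diet rich in fructose, fat and cholesterol. Each diet was given for 6.5 weeks. No other treatment or allele is named for either group, and the sources used here do not give the number, age and sex of the mice in each library. Because there was 1 library per diet, a difference between diets cannot be told apart from a difference between libraries. No test of diet was made, and every interval below is an exact 95% interval that covers counting error only, since UMIs of 1 barcode and barcodes of 1 library share their source.

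The proteasome core is a barrel of stacked rings, in which the outer alpha rings gate the entry and the inner beta rings carry the catalytic sites. A cap with a ring of ATPases unfolds the substrate and feeds it into the barrel, and the capped particle is the 26S proteasome. In immune cells, and in other cells exposed to interferon, the inducible subunits Psmb8, Psmb9 and Psmb10 take the places of the catalytic subunits Psmb5, Psmb6 and Psmb7, which changes the peptides supplied to MHC class I. Other activators (Psme genes) can replace the cap, and dedicated chaperones (Psmg genes, Psmd5, Psmd9 and Psmd10) assist assembly without staying in the mature particle. In the liver, proteasome genes are known targets of the transcription factors Nfe2l1 and Nfe2l2, and the inducible subunits of interferon gamma signalling.

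By role, 31 of the 48 genes encode the constitutive 26S particle, of which 14 belong to the core and 17 to the cap. The core comprises 7 alpha subunits, 4 non-catalytic beta subunits and 3 catalytic beta subunits. Among these genes the cap is counted as 6 ATPases and 11 other subunits, and a subunit whose symbol lies outside the pattern is not counted. The remaining genes are 3 immunoproteasome subunits, 5 activator genes, 1 inhibitor (Psmf1), 7 chaperones and 1 tissue-specific alpha subunit (Psma8, known from the testis). Psme2b is a copy of the activator gene Psme2, so that reads can be split between them. The members together held 174511 UMIs in chow, or 0.370% of nuclear-encoded UMIs, and 110644 UMIs in NASH, or 0.452%.

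The catalytic pairs are spread over the genome (GRCm38). Psmb8 (ENSMUSG00000024338) lies at chr17:34197721-34201454 on the plus strand, and Psmb9 (ENSMUSG00000096727) at chr17:34181987-34187764 on the minus strand. They lie on either side of the peptide transporter gene Tap1 (chr17:34187553-34197225), whose start overlaps that of Psmb9. Psmb10 (ENSMUSG00000031897) lies at chr8:105935735-105938444, Psmb5 (ENSMUSG00000022193) at chr14:54614119-54618022, Psmb6 (ENSMUSG00000018286) at chr11:70525367-70527858 and Psmb7 (ENSMUSG00000026750) at chr2:38588036-38644087. In all, 8 members overlap another detected gene, so that part of their counts is uncertain if strand was not used in counting. These pairs are Psma2 with AW209491, Psmb7 with Nek6, Psmb9 with Tap1, Psmc3 with Slc39a13, Psmd13 with Sirt3, Psme1 with Emc9, Psmd9 with Hpd and Psmd5 with Cutal.

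Shown are the upstream sequences of Psmb5 and Psmb6, which encode constitutive catalytic subunits, and of Psmb10, which encodes an inducible one. They are the bases before the RefSeq start that lie outside any annotated exon, 5′ to 3′ on the strand of the gene, at chr14:54618023-54618245 (minus), chr11:70525107-70525356 (plus) and chr8:105938445-105938642 (minus) of GRCm38.p6. Capitals mark a match to TGACNNNGC, the antioxidant response element bound by Nfe2l1 and Nfe2l2. The printed genes were chosen with their diet ratios known, and no link between a match and a diet ratio was tested. The direction of Psmb5 and Psmb6 between the diets depends on barcode depth, as given below. Psme2 also had a stretch outside exons, which is not printed.
Psmb5: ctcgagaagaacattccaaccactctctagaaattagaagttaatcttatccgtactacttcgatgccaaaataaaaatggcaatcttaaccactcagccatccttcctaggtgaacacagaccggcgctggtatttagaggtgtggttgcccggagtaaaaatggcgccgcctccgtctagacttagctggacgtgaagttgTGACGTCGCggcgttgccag
Psmb6: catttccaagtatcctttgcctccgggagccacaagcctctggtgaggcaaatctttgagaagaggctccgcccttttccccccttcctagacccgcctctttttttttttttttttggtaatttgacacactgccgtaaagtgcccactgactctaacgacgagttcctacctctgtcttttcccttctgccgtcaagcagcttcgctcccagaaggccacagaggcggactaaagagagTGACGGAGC
Psmb10: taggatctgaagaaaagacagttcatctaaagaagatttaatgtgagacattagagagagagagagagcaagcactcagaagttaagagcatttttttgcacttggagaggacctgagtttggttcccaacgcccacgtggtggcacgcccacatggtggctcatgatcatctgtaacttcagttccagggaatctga

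The 250 bases before the start were searched on both strands for 4 motifs in the 40 members with a RefSeq promoter. A member is counted if any of its promoters matched, whereas the percentages are over single promoters, so the counts and percentages are unlike measures. TGACNNNGC was found in 5 members, namely Psmb5, Psmb6, Psmc6, Psmd12 and Psmd9, and in 10.2% of 32851 promoters in the table. The interferon response element GAAANNGAA was found in Psmb3, Psmd4 and Psmd9 and in 7.13% of promoters, and in none of the 3 immunoproteasome windows. The gamma-activated site TTCNNNGAA was found in Psmb8 and Psmg1 and in 7.02% of promoters. CCAAT was found in 13 members, 10 of them among the 25 constitutive 26S genes in the table, and in 33.8% of promoters. The windows of Psmb8 and Psmb9 lie wholly, and those of Psme1, Psme2, Psmb5 and Psmb10 partly, within exons annotated by GENCODE. The Psmb10 window held none of the 4 motifs. A match describes letters in this window and no binding.

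The deposited matrices held 71635757 UMIs on 7359 barcodes for chow and 39440182 UMIs on 5881 barcodes for NASH, with medians of 4843 and 2305 UMIs per barcode. The median mitochondrial share per barcode was 20.7% in chow and 34.3% in NASH, and the filters kept 4041 and 2305 barcodes. The libraries shared 69 barcode sequences, of which 8 were kept. Cell groups are gates on marker genes. Hepatocyte-like barcodes had at least 5% of their nuclear-encoded UMIs in hepatocyte markers and passed no other gate. Unless a depth is named, they also had at least 5000 nuclear-encoded UMIs, which left 1813 barcodes in chow and 1018 in NASH. These differed between the libraries in median depth (20722 and 16009 nuclear-encoded UMIs), mitochondrial share (18.5% and 23.5%) and hepatocyte marker share (10.5% and 13.2%). At any depth, hepatocyte-like barcodes numbered 3802 and 2052. Near the limit of the hepatocyte gate, on either side of it, lay 295 and 129 barcodes. The part that these differences play in the results below was not tested.

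Constitutive proteasome RNA was higher in the NASH library than in the chow library in hepatocyte-like barcodes, in the core and in the cap alike, whereas immunoproteasome RNA was lower. Levels are CPM, the UMIs of a gene per 1000000 nuclear-encoded UMIs, summed over barcodes. The 31 genes of the 26S particle together stood at 2864 CPM (interval 2847 to 2881) in the chow library against 3370 CPM (interval 3343 to 3398) in the NASH library, a log2 ratio of 0.23 (0.22 to 0.25). The core stood at 1601 and 1890 CPM (log2 ratio 0.24) and the cap at 1263 and 1480 CPM (0.23). The 3 immunoproteasome genes together stood at 96.4 CPM in chow and 84.0 CPM in NASH, a log2 ratio of -0.20 (-0.29 to -0.11). Both ratios were lower, at 0.02 for the 26S genes and -0.56 for the immunoproteasome, in barcodes of 5000 to under 15000 nuclear-encoded UMIs.

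Read against other genes, these differences were modest. Counts and medians over single genes use log2 ratios with 5 CPM added to each level, which understates the difference of low genes. A ratio printed with an interval for a named gene, in every section, has nothing added, so it can lie further from 0. Of the 48 members, 46 had at least 50 UMIs in hepatocyte-like barcodes and were compared, and 41 of them were higher in NASH, against 67.0% of the 10563 genes compared. The median log2 ratio was 0.21 over these members and 0.10 over all genes compared, and 35 of the 46 members lay above the latter. In barcodes of 5000 to under 15000 UMIs the medians were 0.0096 and 0.0998, and 14 of 46 members lay above the latter, so that relative to other genes the direction turned there. With 5 CPM added, a log2 ratio of at least 0.5 was reached by 1 member, Psmd9, against 9.24% of all genes. A ratio of -0.5 or below was reached by 0 members, against 3.89% of all genes. With nothing added, Psmf1 and Psmg3 also lay above 0.5. With genes of at least 1000 UMIs only, the medians were 0.19 for members and 0.17 for all genes, and 24 of 43 members lay above the latter.

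**Figure D1:**
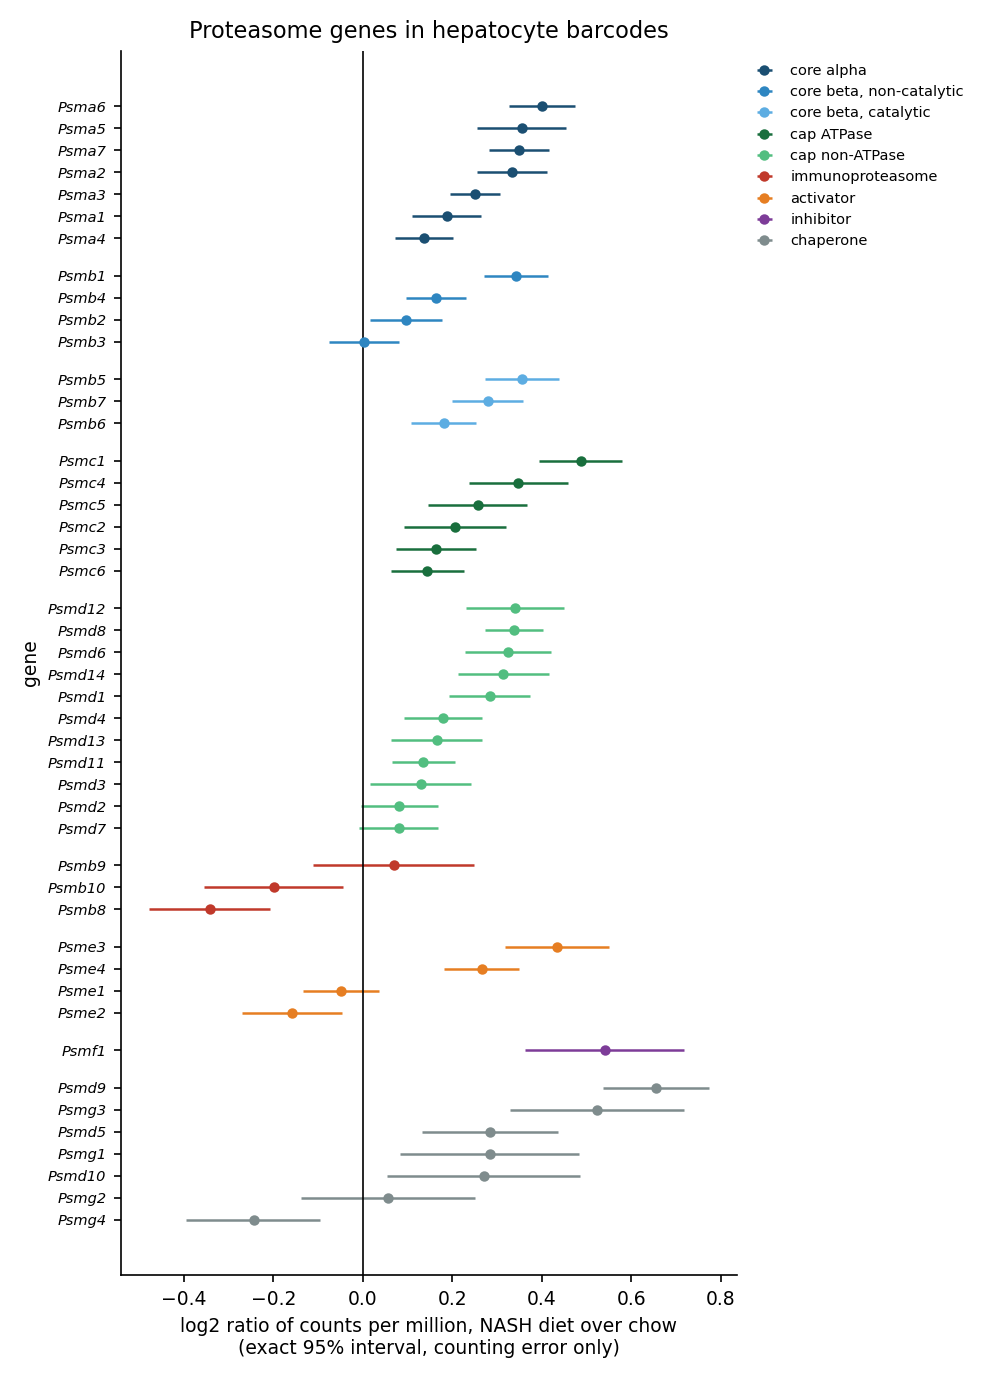
Log2 ratio of CPM between the NASH and the chow library in hepatocyte barcodes, 1 row per gene, ordered by role. Points are ratios without an added count and lines are exact 95% intervals of counting error. Constitutive subunits lie at or right of 0, while Psmb8, Psmb10, Psme2 and Psmg4 lie left of it with intervals that leave out 0.

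All 7 alpha subunits, which form the outer rings, were higher in NASH, and their summed level was 838 CPM in chow and 1013 CPM in NASH (log2 ratio 0.27). Psma6 had the highest ratio among them, at 103 CPM in chow and 136 CPM in NASH (log2 ratio 0.40, 0.33 to 0.47). Psma4 had the lowest, at 153 and 169 CPM (0.14, 0.07 to 0.20). Psma3, the alpha subunit with the most UMIs, stood at 189 and 225 CPM (0.25, 0.19 to 0.31). With 5 CPM added, the alpha ring genes all had ratios above the 0.10 of the median gene, with 0.13 as the lowest.

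Among the 4 non-catalytic beta subunits, structural parts of the inner rings, the summed level was 466 CPM in chow and 521 CPM in NASH (log2 ratio 0.16). Psmb1 stood at 114 and 145 CPM (0.34, 0.27 to 0.41), the highest ratio of the 4. Psmb3 stood at 113 CPM in both libraries (0.00, -0.08 to 0.08), the lowest, so this structural subunit gave no detectable difference at this depth. Psmb4, with the most UMIs of the 4, stood at 138 and 155 CPM (0.16, 0.10 to 0.23).

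The constitutive catalytic subunits were all higher in NASH, from 297 to 356 CPM when summed (log2 ratio 0.26). Psmb5, which carries the chymotrypsin-like activity, stood at 85.2 CPM in chow and 109 CPM in NASH (0.36, 0.27 to 0.44). Psmb6, with the caspase-like activity, stood at 117 and 133 CPM (0.18, 0.11 to 0.25). Psmb7, with the trypsin-like activity, stood at 94.4 and 115 CPM (0.28, 0.20 to 0.36). Each interval lay above 0 over all hepatocyte-like barcodes. In those of 5000 to under 15000 nuclear-encoded UMIs the direction turned for Psmb5, at 126.9 and 114.0 CPM, and for Psmb6, at 148.5 and 127 CPM, while Psmb7 stood at 112.0 and 113 CPM.

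Their inducible counterparts did not follow. Psmb8, which takes the place of Psmb5, stood at 44.4 CPM in chow and 35.0 CPM in NASH (log2 ratio -0.34, -0.48 to -0.21). Psmb10, which takes the place of Psmb7, stood at 31.4 and 27.3 CPM (-0.20, -0.36 to -0.04). Psmb9, which takes the place of Psmb6, stood at 20.6 and 21.6 CPM (0.07, -0.11 to 0.25). Thus over all hepatocyte-like barcodes 2 of the 3 inducible subunits were lower in NASH beyond counting error, and Psmb9 did not differ detectably. Psmb9 was not level at every depth. At 5000 to under 15000 nuclear-encoded UMIs it stood at 32.6 CPM in chow and 21.5 CPM in NASH. At 15000 to under 30000 UMIs it stood at 18.2 and 19.6 CPM, and at 30000 UMIs and more at 20.6 and 31.8 CPM.

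Of the cap, the 6 ATPases that unfold substrates stood together at 382 CPM in chow and 457 CPM in NASH (log2 ratio 0.26). Psmc1 had the highest ratio, at 63.8 and 89.4 CPM (0.49, 0.39 to 0.58). Psmc6 had both the lowest ratio and the most UMIs, at 95.7 and 106 CPM (0.14, 0.06 to 0.23). The 11 other cap subunits, which bind and deubiquitinate substrates or hold the cap together, stood at 881 and 1022 CPM (0.22). Psmd8 had the highest ratio on the scale with 5 CPM added, and the most UMIs, at 141 and 178 CPM (0.34, 0.27 to 0.40). Psmd7, which pairs with the deubiquitinase Psmd14, had the lowest, at 85.5 and 90.4 CPM (0.08, -0.01 to 0.17).

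The activators divided by type. Psme1 and Psme2, the subunits of the interferon-inducible PA28 alpha-beta ring, stood at 96.7 and 93.5 CPM (log2 ratio -0.05, -0.13 to 0.04) and at 60.1 and 53.9 CPM (-0.16, -0.27 to -0.05). Psme3, the nuclear PA28 gamma, stood at 41.3 CPM in chow and 55.8 CPM in NASH (0.43, 0.32 to 0.55). Psme4, which encodes the PA200 activator, stood at 84.8 and 102 CPM (0.27, 0.18 to 0.35). The interferon-inducible activators were thus level or lower, like Psmb8 and Psmb10, and the other activators were higher, like the 26S genes. Psme2b, with 26 UMIs in chow and 13 in NASH, was not compared. The inhibitor gene Psmf1, also known as PI31, stood at 17.3 and 25.1 CPM (0.54, 0.36 to 0.72).

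Assembly chaperones stood together at 158 CPM in chow and 193 CPM in NASH (log2 ratio 0.28), but differed among themselves. Psmd9, which helps to build the ATPase ring, stood at 36.7 CPM in chow and 57.8 CPM in NASH (0.65, 0.54 to 0.77). Its annotated span overlaps Hpd, a tyrosine-catabolism gene of hepatocytes, so that its counts are among the uncertain ones. Psmg3, an alpha ring chaperone, stood at 14.6 and 20.9 CPM (0.52, 0.33 to 0.72), whereas its partner Psmg4 stood at 34.8 and 29.4 CPM (-0.24, -0.39 to -0.10). Among the alpha ring chaperones that act as a pair, Psmg1 stood at 15.1 and 18.4 CPM (0.28, 0.08 to 0.48) and Psmg2 at 17.9 and 18.6 CPM (0.06, -0.14 to 0.25). The intervals of Psmg3 and Psmg4 lay apart, and those of Psmg1 and Psmg2 overlapped. The ATPase chaperones Psmd5 and Psmd10 stood at 26.03 and 31.7 CPM (0.29, 0.13 to 0.44) and at 13.4 and 16.1 CPM (0.27, 0.05 to 0.48). Psma8 had 26 UMIs in chow and 10 in NASH and was not compared.

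Genes that work with the proteasome were read from other lists. As given above, 67.0% of all genes were higher in NASH and the median gene was at 0.10. All 11 partners of the particle were higher. With 5 CPM added, the median log2 ratio of these partners was 0.20 and none was at 0.5 or more. Among them Pomp, the maturation factor of the core, stood at 199.98 CPM in chow and 247 CPM in NASH (0.30, 0.25 to 0.36). All 8 genes of proteasome gene control were higher, with a median of 0.25. Nfe2l2 stood at 29.1 and 50.8 CPM (0.80, 0.67 to 0.93) and Nfe2l1 at 61.9 and 72.3 CPM (0.23, 0.13 to 0.32). Of 16 genes of ubiquitin and its shuttle factors 13 were higher (median 0.18).

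Of the genes of class I presentation, 1 of 11 was higher in NASH, against 67.0% of all genes, and the median log2 ratio of that list was -0.25 against 0.10. Calr and Pdia3, endoplasmic reticulum proteins that load peptides onto class I and also fold many other proteins, stood at 1510 and 804 CPM (-0.91, -0.94 to -0.88) and at 527 and 293 CPM (-0.85, -0.89 to -0.80). Tap1, the neighbour of Psmb8 and Psmb9, was the gene that was higher, at 11.8 and 18.1 CPM (0.62, 0.41 to 0.83). Tap2 was lower, at 12.2 and 7.71 CPM (-0.66, -0.95 to -0.38). Of 8 interferon signalling genes 4 were higher, below the 67.0% of all genes, with a median of 0.02, and Ifngr2, a receptor chain for interferon gamma, stood at 13.5 and 23.1 CPM (0.77, 0.58 to 0.96).

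The difference between the libraries in 26S RNA was not the same at every barcode depth. Among hepatocyte-like barcodes of 5000 to under 15000 nuclear-encoded UMIs the level was 3321 CPM in chow (461 barcodes) and 3372 CPM in NASH (441 barcodes), a log2 ratio of 0.02 (-0.01 to 0.05). There the core stood at 1949 and 1900 CPM (-0.04, -0.08 to 0.00) and the cap at 1372 and 1473 CPM (0.10, 0.05 to 0.15). At 15000 to under 30000 UMIs 26S RNA was at 2737 CPM in 1109 barcodes and 3257 CPM in 513 barcodes (0.25). At 30000 UMIs and more it was 2965 CPM in 243 barcodes and 3897 CPM in 64 barcodes (0.39). In the shallowest of these bins the core did not differ beyond counting error and the cap was higher in NASH, and in the deeper bins both were higher. The immunoproteasome ratio also rose from bin to bin. It was -0.56 (-0.75 to -0.38) at 5000 to under 15000 UMIs, where the levels were 124 and 84.1 CPM. The ratio was -0.15 at 15000 to under 30000 UMIs and -0.01 at 30000 UMIs and more. Median mitochondrial shares in these 3 bins were 20.5%, 18.6% and 16.5% in chow and 25.5%, 22.5% and 18.0% in NASH, and their part in the result was not tested.

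**Figure D2:**
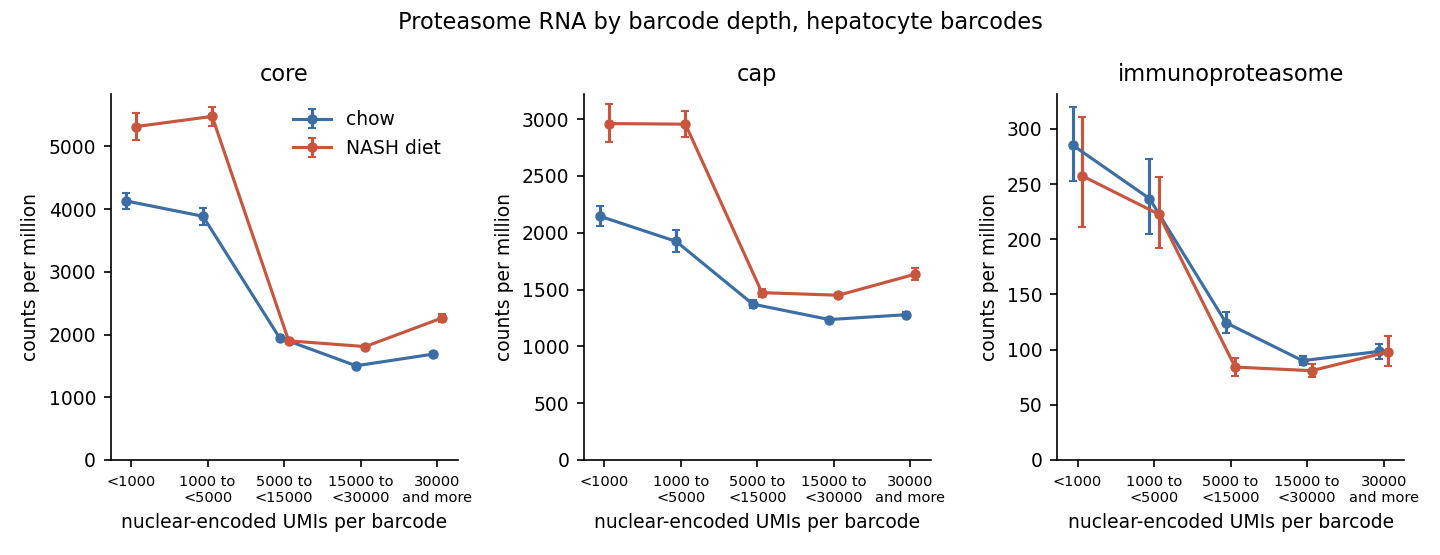
Summed CPM of proteasome genes by nuclear-encoded UMIs per hepatocyte barcode, 1 line per library, with exact 95% Poisson intervals. The panels are core, cap and immunoproteasome genes. Levels are highest in barcodes under 5000 UMIs, and in those under 1000 UMIs core genes stand at 4129 CPM in chow and 5314 CPM in NASH.

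Low-depth hepatocyte-like barcodes carried a larger share of proteasome RNA than deep ones in both libraries, and the core more so than the cap. Barcodes under 1000 nuclear-encoded UMIs, 1645 in chow and 562 in NASH, had 6275 CPM of 26S RNA in chow and 8276 CPM in NASH. Against barcodes of 5000 UMIs and more the log2 ratio was 1.13 (1.10 to 1.17) in chow and 1.30 (1.25 to 1.35) in NASH. It was 1.37 and 1.49 for the core, 0.76 and 1.001 for the cap, and 0.47 and 0.56 for the activators. The immunoproteasome stood at 285 against 96.4 CPM in chow (1.57) and 257 against 84.0 CPM in NASH (1.62). Intermediate barcodes of 1000 to under 5000 UMIs had 5808 and 8434 CPM of 26S RNA. Barcodes set aside for a mitochondrial share over 30% and up to 80%, of any cell group, had 2941 and 4302 CPM (443 and 2280 barcodes, with medians of 2033 and 677.5 nuclear-encoded UMIs).

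Counted gene by gene, 34 of 46 members in chow and 38 of 46 in NASH were higher in low-depth barcodes by a log2 ratio of at least 0.5, with 5 CPM added, against 16.6% and 22.0% of all genes. In the other direction were 2 members in chow, Psme3 and Psme4, and 1 in NASH, Psme3, against 35.5% and 34.0% of all genes. All 14 core genes passed in both libraries, as did 10 and 14 of the 17 cap genes. The median was 1.35 and 1.41 over the core, 0.74 and 0.87 over the cap, and -0.27 and -0.16 over all genes. The core thus lay above the cap, and both lay above the median gene.

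Psmb5 had the highest ratio in both libraries, at 384 CPM in low-depth barcodes against 85.2 CPM in deep ones in chow (log2 ratio 2.17, 2.02 to 2.32) and 484 against 109 CPM in NASH (2.15, 1.93 to 2.36). Psmb6 stood at 405 against 117 CPM (1.79, 1.64 to 1.93) and 455 against 133 CPM (1.78, 1.56 to 1.99). The third catalytic gene, Psmb7, stood at 208 against 94.4 CPM in chow (1.14, 0.94 to 1.34) and 315 against 115 CPM in NASH (1.46, 1.19 to 1.71), within the range of the other core genes. Psma6 had the lowest ratio of the core in chow, at 165 against 103 CPM (0.68, 0.45 to 0.90). Cap ATPases spread widely: Psmc4 stood at 164 against 47.8 CPM in chow (1.78, 1.54 to 2.01), but Psmc1 at 74.7 against 63.8 CPM (0.23, -0.12 to 0.56). In NASH Psmc4 stood at 219 against 60.8 CPM (1.85, 1.53 to 2.16) and Psmc1 at 126 against 89.4 CPM (0.50, 0.08 to 0.89). Psme4 stood at 56.0 against 84.8 CPM in chow (-0.60, -1.002 to -0.22) and 85.8 against 102 CPM in NASH (-0.25, -0.77 to 0.23). Psme3 stood at 27.5 against 41.3 CPM in chow (-0.59, -1.18 to -0.05), from 28 low-depth UMIs.

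**Figure D3:**
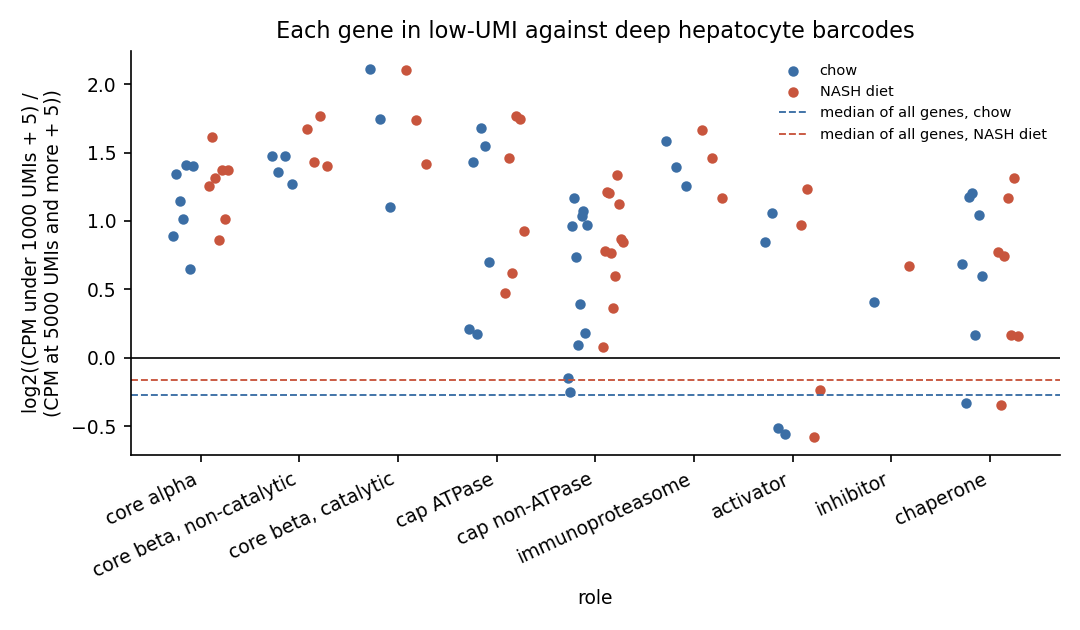
Log2 ratio of CPM + 5 between hepatocyte barcodes under 1000 and at 5000 or more nuclear-encoded UMIs, 1 point per gene and library, by role, with dashed lines at the median of all genes. Core genes lie between 0.65 and 2.11 and cap genes between -0.25 and 1.77.

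Low-depth barcodes also differed in other measures. Their ribosomal protein share was 9.85% in chow and 8.26% in NASH, against 5.22% and 4.90% in deep barcodes. The nuclear RNAs Malat1 and Neat1 made up 0.0117% of their UMIs in chow and 0.110% in NASH, against 0.177% and 0.162%. Kupffer marker genes stood at 89.5 CPM in them in chow against 3.54 CPM in deep barcodes. Across the 46 members the ratio went with the length of the longest annotated transcript (Spearman's rho -0.39 in chow and -0.34 in NASH), as it did across all genes (-0.54 over 10123 genes and -0.41 over 9271). These correlations are across genes of the same libraries, and genes are not independent. The median longest transcript was 1220 bases for core genes and 1983 bases for cap genes, and the part of length, depth or free RNA in the result was not tested.

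The balance of inducible and constitutive catalytic subunits differed between the libraries and between cell groups. Over the 6 catalytic genes in hepatocyte-like barcodes, the inducible ones made up 24.5% of UMIs (23.8 to 25.2, Clopper-Pearson, 3650 of 14893) in chow and 19.1% (18.2 to 20.0, 1459 of 7651) in NASH. This share compares groups and is no molar ratio, since 3′ capture can differ between genes. For the pair of Psmb8 and Psmb5 the inducible share was 34.2% (32.9 to 35.6) in chow and 24.3% (22.6 to 26.02) in NASH. For Psmb10 and Psmb7 it was 25.0% (23.7 to 26.2) and 19.3% (17.7 to 20.9). For Psmb9 and Psmb6 it was 14.96% (14.004 to 15.96) and 14.01% (12.7 to 15.4), where the intervals overlap. The share over all 6 genes was lower in NASH in each of 5 depth bins, at 22.2% against 17.0%, 20.2% against 14.3%, 24.3% against 19.2%, 24.9% against 19.4% and 23.8% against 17.5% from the lowest bin to the highest.

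**Figure D4:**
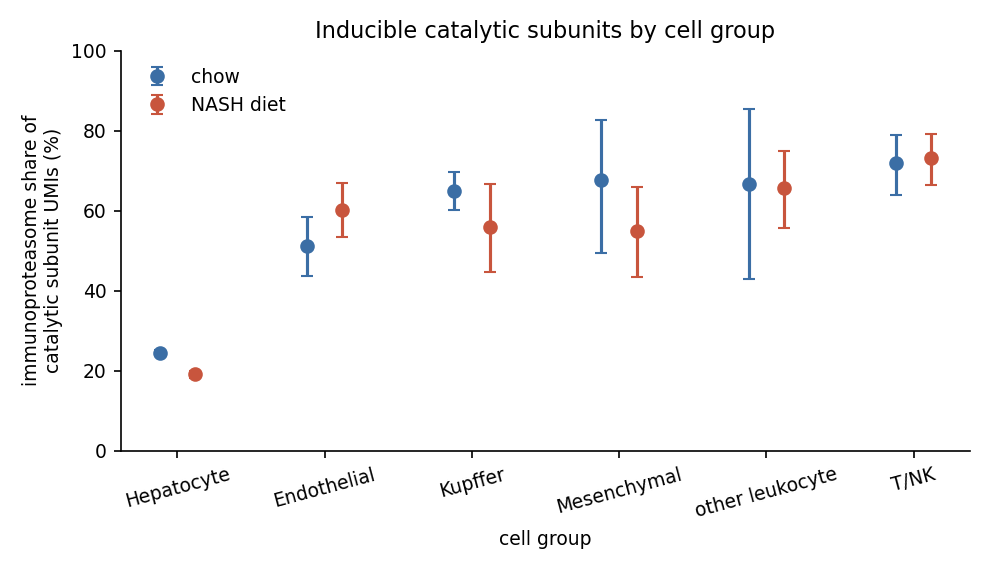
Share of Psmb8, Psmb9 and Psmb10 in the UMIs of the 6 catalytic subunits, by cell group and library, with exact 95% binomial intervals. Hepatocyte barcodes lie at 24.5% and 19.1%, below every other group plotted.

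In the other cell groups the inducible share was higher than in hepatocyte-like barcodes. The share was 51.1% (43.6 to 58.5) in chow and 60.3% (53.4 to 66.9) in NASH in endothelial-like barcodes, which numbered 52 and 47. In these barcodes the pair of Psmb9 and Psmb6 stood at 37.3% (25.8 to 49.99) and 52.1% (40.04 to 63.9). In Kupffer-like barcodes, 68 and 34 in number, it was 65.0% (60.1 to 69.6) and 56.0% (44.7 to 66.8). In T/NK-like barcodes it was 71.9% (63.9 to 79.0) and 73.1% (66.4 to 79.1). Between diets the intervals of these 3 groups overlap, and within each library they lie above those of hepatocyte-like barcodes. The T/NK-like group held only 4 barcodes in chow and 15 in NASH, and in chow 1 barcode gave 84.9% of its 26S UMIs and 85.7% of its immunoproteasome UMIs. Near the limit, on either side of it, lay 6 and 7 barcodes for the endothelial gate, 1 and 3 for the Kupffer gate and 1 and 4 for the T/NK gate. Hepatocyte markers made up a median of 0.438% to 0.866% of UMIs in the non-hepatocyte groups of chow and of 0.260% to 1.99% in those of NASH. Mesenchymal-like barcodes, 5 and 10 in number, stood at 67.6% (49.5 to 82.6) and 54.9% (43.5 to 65.9). The other leukocytes (B, plasma, plasmacytoid dendritic and further myeloid gates), 11 and 13 in number, stood at 66.7% (43.0 to 85.4) and 65.7% (55.6 to 74.8).

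In CPM, the immunoproteasome of Kupffer-like barcodes was higher than that of hepatocyte-like barcodes by a log2 ratio of 2.77 in chow and 2.69 in NASH, and that of endothelial-like barcodes by 2.09 and 2.36. Psmb8 stood at 259 CPM in Kupffer-like barcodes of the chow library, Psmb9 at 219 CPM and Psmb10 at 182 CPM, against 44.4, 20.6 and 31.4 CPM in hepatocyte-like barcodes. In NASH the Kupffer-like levels were 173, 185 and 185 CPM, from 15, 16 and 16 UMIs. Psmb8 was highest in T/NK-like barcodes, at 1196 CPM in chow and 1075 CPM in NASH. Psme1 and Psme2 stood at 420 and 264 CPM in Kupffer-like barcodes of chow and 521 and 791 CPM in T/NK-like ones, against 96.7 and 60.1 CPM in hepatocyte-like ones. In NASH Kupffer-like barcodes Psme1 stood at 358 CPM and Psme2 at 104 CPM from 9 UMIs, where the log2 ratio of Psme2 to hepatocyte-like barcodes was 0.95 (-0.19 to 1.88). Constitutive genes varied among themselves. Psmb5 stood at 117 CPM in Kupffer-like, 114 CPM in endothelial-like and 386 CPM in T/NK-like barcodes of chow, against 85.2 CPM in hepatocyte-like ones. Psma6 stood at 376 CPM and Psma7 at 400 CPM in Kupffer-like barcodes of chow, against 103 and 128 CPM, values named after they were seen.

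Free RNA from other cells can place UMIs in hepatocyte-like barcodes. These held 27.2 immunoproteasome UMIs for each UMI of a Kupffer marker in chow and 63.4 in NASH, whereas Kupffer-like barcodes held 0.0201 and 0.0236. Ptprc, the pan-leukocyte gene, had 1 UMI in the hepatocyte-like barcodes of chow and 3 in those of NASH. Endothelial markers stood at 5.02 and 8.34 CPM there, against 20882 and 16993 CPM in endothelial-like barcodes. The gates themselves chose barcodes by Kupffer markers, which bears on this ratio, and the part of free RNA was not tested.

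Constitutive 26S RNA also varied by cell group. It stood at 1942 CPM (1485 to 2494, from 61 UMIs) in the other leukocytes of chow, below the 2864 CPM of hepatocyte-like barcodes, and at 3423 CPM in those of NASH. This pooled group differed in make-up between the libraries, with a median share of further myeloid markers of 14.8% in chow and 0.605% in NASH. The 26S RNA stood at 3938 CPM in chow and 3729 CPM in NASH in endothelial-like barcodes, log2 ratios of 0.46 and 0.15 to the hepatocyte-like barcodes. It stood at 4557 and 4465 CPM in Kupffer-like barcodes (0.67 and 0.41), and at 8813 and 5296 CPM in T/NK-like ones (1.62 and 0.65). Between diets it did not differ beyond counting error in endothelial-like (log2 ratio -0.08, -0.21 to 0.05) or Kupffer-like barcodes (-0.03, -0.19 to 0.13). The top barcode gave 26.1% of the 387 UMIs of 26S genes in Kupffer-like barcodes of NASH. Activator RNA was lower in Kupffer-like barcodes of NASH, at 853 CPM in chow and 623 CPM in NASH (-0.45, -0.90 to -0.04). There the median depth was 4279 UMIs in chow and 1129.5 in NASH, the hepatocyte marker share 0.438% and 1.99%, and the part of either in the result was not tested.

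Within hepatocyte-like barcodes 26S RNA went with a score of liver zonation. The score is the ratio of pericentral marker UMIs (Cyp2e1, Glul and others) to periportal ones (Cyp2f2, Ass1 and others), and it was used to split each library into 3 equal bins, which are ranges and not cell types. From the periportal to the pericentral bin the 26S level was 2442, 2841 and 3346 CPM in chow, and the log2 ratio of the outer bins was 0.45 (0.43 to 0.48). In NASH it was 3054, 3410 and 3598 CPM (0.24, 0.21 to 0.27). The core gave 0.47 and 0.21, and the cap 0.44 and 0.27. Because the bins were cut within each library, bins of the same name need not cover the same range of the score. In the pericentral bin the share of pericentral markers was 1.03% in chow and 1.76% in NASH. In the periportal bin the share of periportal markers was 0.912% in chow and 1.15% in NASH. The part of these differences in the diet ratio by bin was not tested. Between bins of the same name, the diet ratio of the 26S genes was 0.32 (periportal), 0.26 (mid) and 0.10 (pericentral). The immunoproteasome had no such order, with 90.6, 108 and 92.3 CPM in chow (0.03, -0.09 to 0.14) and 89.7, 93.7 and 71.9 CPM in NASH (-0.32, -0.50 to -0.13).

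**Figure D5:**
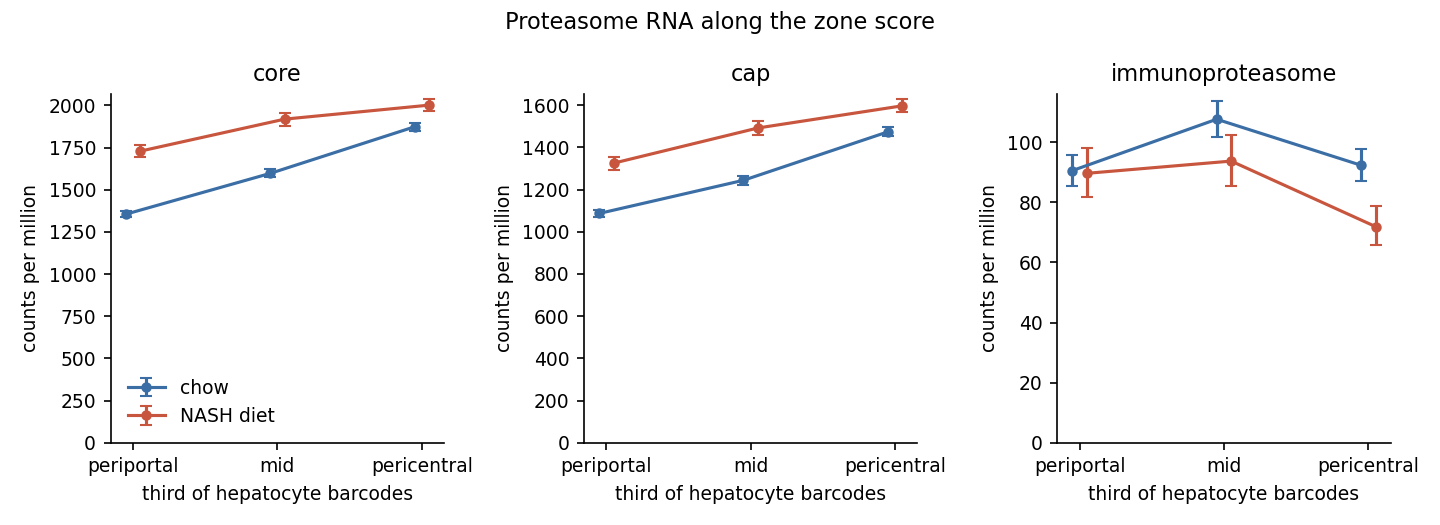
Summed CPM of core, cap and immunoproteasome genes in 3 equal bins of hepatocyte barcodes along the zone score, with exact 95% Poisson intervals. Core and cap are lowest in the periportal bin of both libraries, and the immunoproteasome of the NASH library is lowest in the pericentral bin.

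Of the 46 members compared, 43 in chow and 38 in NASH were higher in the pericentral bin, against 70.3% and 70.9% of all genes. A log2 ratio of at least 0.5 with 5 CPM added was reached by 12 members in chow and 7 in NASH, against 7.62% and 12.1% of all genes, and one of -0.5 or below by 0 members in both, against 3.7% and 4.08%. The median was 0.38 and 0.23 over members and 0.12 and 0.14 over all genes. Psma5, Psmd1, Psmd14 and Psmf1 passed 0.5 in both libraries. Psma5 stood at 42.8 CPM in the periportal and 80.02 CPM in the pericentral bin of chow (0.90, 0.75 to 1.05) and at 58.3 and 93.6 CPM in NASH (0.68, 0.49 to 0.88). Psmb3 stood at 87.4 and 147 CPM in chow (0.75, 0.65 to 0.86) and Psme1 at 76.0 and 121 CPM (0.67, 0.55 to 0.78). Psma5, Psmd1, Psmd14, Psmb3 and Psme1 are named here for their values.

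The catalytic subunits had these values along the score, and differences between the libraries were not tested. Psmb5 stood at 70.3 CPM in the periportal and 95.3 CPM in the pericentral bin of chow (log2 ratio 0.44, 0.31 to 0.56), but at 105 and 97.8 CPM in NASH (-0.10, -0.26 to 0.06). Psmb6 stood at 104 and 129 CPM in chow (0.31, 0.21 to 0.42), but at 132 and 124 CPM in NASH (-0.09, -0.23 to 0.06). Psmb8 stood at 43.9 and 40.6 CPM in chow (-0.11, -0.28 to 0.06) and 38.7 and 28.6 CPM in NASH (-0.44, -0.72 to -0.15). Psmb10 stood at 28.7 and 30.4 CPM in chow (0.08, -0.12 to 0.29) and 30.5 and 21.2 CPM in NASH (-0.53, -0.86 to -0.20). Psmb7 gave log2 ratios of 0.41 (0.29 to 0.52) in chow and 0.26 (0.10 to 0.42) in NASH, and Psmb9 of 0.24 (-0.01 to 0.50) and 0.11 (-0.25 to 0.48), so that for Psmb7, Psmb8 and Psmb9 the intervals of the libraries overlap. Psmg2 was lower in the pericentral bin of both libraries, at 21.4 and 14.5 CPM in chow (-0.56, -0.83 to -0.28) and 21.4 and 14.8 CPM in NASH (-0.53, -0.93 to -0.14). The inducible share of the catalytic UMIs was lowest in the pericentral bin, at 26.1%, 26.1% and 21.7% from the periportal bin on in chow and 20.9%, 19.3% and 17.3% in NASH. In NASH the intervals of the mid bin (17.7 to 20.9) and the pericentral bin (15.9 to 18.8) overlap. For Psmb9 with Psmb6 the share was 14.8%, 15.9% and 14.2% in chow. In NASH this pair stood at 13.4%, 13.3% and 15.2%, highest in the pericentral bin. Median depth in the bins was 22933.5, 18871 and 19900 UMIs in chow and 15439, 14378 and 18728 in NASH, and its part was not tested.

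Barcodes also differed widely in proteasome RNA within each library. With every hepatocyte-like barcode thinned to 5000 nuclear-encoded UMIs, and 0 barcodes left out, the 26S genes gave a mean of 14.7 UMIs per barcode (SD 8.53) in chow and 17.1 (SD 10.1) in NASH. The 10th percentile, median and 90th percentile were 7, 13 and 22 UMIs in chow and 8, 15 and 29 in NASH. The variance was 4.96 and 5.99 times the mean, where pure counting error would give about the mean itself. For the core it was 4.82 and 5.49 times a mean of 8.28 and 9.598 UMIs, and for the cap 1.68 and 2.03 times a mean of 6.39 and 7.49 UMIs. Core genes thus carried most of the spread between barcodes, which the counting intervals above do not include. An upper tail of barcodes enters these variances. Even the bin that starts at 58 UMIs of 26S genes held 5 barcodes in chow and 3 in NASH. The part of this tail in the spread and in the summed levels was not tested.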

How the data were processed

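Livers were taken apart with collagenase, cells were separated on Percoll and, per the labels' protocols, libraries came from version 3 of the 3' kit of 10x Genomics. The deposited values are raw counts of UMIs for each gene in each barcode, and per the file headers Cell Ranger 3.0.2 made them. The submitters' processing notes name Cell Ranger 3.1.0, Seurat and the mm10 genome build. The sources used here name neither the annotation nor whether strand was used. A merged matrix, which holds 86.4% of the chow UMIs and 100.0% of the NASH UMIs, served as an alternative only. Every value column was matched to a library by its file, and 0 columns were left unmatched.

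Barcodes were kept with at least 500 UMIs, 200 genes and at most 30% mitochondrial UMIs. Doublets were scored with Scrublet in scanpy 1.11.5, whose own threshold marked 0 barcodes in both libraries, so the highest scores were marked instead, at 0.8% per 1000 barcodes (433 in chow and 277 in NASH, of which 285 and 64 had passed the other filters). A gate asked for 3 UMIs of 2 markers, at least 0.5% of nuclear-encoded UMIs (5% for erythroid markers) and 2 times the next group, and hepatocyte-like barcodes for 5% in hepatocyte markers. Counts were summed per group and divided by nuclear-encoded UMIs. Levels have exact Poisson, ratios exact conditional binomial and shares Clopper-Pearson 95% intervals. Genes with at least 50 UMIs in the barcodes compared entered the single-gene ratios. Counts and medians over genes used these ratios with 5 CPM added, and a ratio printed with an interval had nothing added.

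With 1 library per diet there was no test. Named were all catalytic, activator, inhibitor and chaperone genes, the highest and lowest ratio and the most UMIs in each other role, and list genes past a log2 ratio of 0.5. A list gene that the rule names is not reported here. Further genes (Nfe2l1, Tap1, Tap2 and those named by zone or depth) were named after their values were seen. The members and lists were chosen with earlier results of these data known. Gene positions are from GENCODE M21 (30934 of 31053 IDs found), and promoters from RefSeq (GRCm38.p6). Alternatives included joint Leiden clusters (2000 genes, 30 components, 15 neighbours, resolution 1.0, seed 0). Ratios and intervals were tested on simulated Poisson counts, summed per library. The simulation held no spread between barcodes or libraries, so it cannot show how the intervals cover such spread. Python 3.11.15, numpy 2.4.6, scipy 1.17.1, pandas 2.3.3, igraph 0.11.9 and matplotlib 3.10.9 were used.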

Additional observations from a re-analysis of the deposited data

Results flagged for a closer look

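In 4 cases a cell group lay on the other side of 0 from the hepatocyte-like barcodes in the ratio of NASH to chow, with both counting intervals leaving out 0. Whether the groups differ was not tested. Core RNA had a log2 ratio of -0.83 (-1.06 to -0.61) in T/NK-like barcodes and cap RNA one of -0.51 (-0.85 to -0.16), against 0.24 and 0.23 in hepatocyte-like barcodes. Of the chow T/NK-like UMIs, 1 barcode of 4 gave 85.1% for the core and 84.5% for the cap. Core RNA had a log2 ratio of -0.39 (-0.71 to -0.05) in mesenchymal-like barcodes, of which there were 5 in chow and 10 in NASH. There 1 barcode gave 36.4% of the core UMIs in chow and 1 barcode gave 27.9% in NASH. Activator RNA had a log2 ratio of -0.45 (-0.90 to -0.04) in Kupffer-like barcodes, against 0.11 in hepatocyte-like ones, and 1 barcode gave 31.5% of its 54 UMIs in NASH.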

How the results depend on the processing

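Of 98 values under other settings, 82 stayed within the interval or count range of the value reported, 16 left it and 0 reversed. Some could not move, since the merged matrix holds the same UMIs as the NASH library. For the median member the range was 0.11 to 0.34, the medians of the single-gene limits, which is no interval of that median. The tally is therefore no measure of how firm the results are. The log2 ratio of 26S RNA between the libraries was 0.18 with mitochondrial UMIs in the total, 0.21 as a mean over barcodes, 0.21 with up to 50% mitochondrial UMIs, 0.21 in joint Leiden clusters, 0.21 at 10000 to under 30000 nuclear-encoded UMIs and 0.022 at 5000 to under 15000. The last setting was chosen after seeing the data. It also gave -0.56 for the immunoproteasome, a median member of 0.0096, 0 members at 0.5 or above and 2 (Psmb8 and Psmb9) at -0.5 or below. With 1 CPM added in place of 5, 2 members (Psmd9 and Psmf1) reached 0.5. The depth ratio of 26S RNA in chow was 1.08 as a mean over barcodes and 1.32 with mitochondrial UMIs in the total. The zone ratio in chow was 0.41 with those UMIs in the total and 0.58 between the outer 10% of barcodes, and in NASH 0.29 between the outer 10%. No paired analysis was possible because each diet has 1 library. No setting replaces the missing replicate libraries, and with 4 T/NK-like barcodes in chow that group gives the values of single cells.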
